A study of Mus musculus with 107 samples.

Results

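Interferon-stimulated genes (ISGs) were examined as 49 of the 50686 genes in the mouse expression table, chosen by gene symbol from a fixed list, and every symbol matched 1 row. They comprised 11 type I-like genes (Isg15 and the Ifit, Mx, Oas and Oasl genes), 10 GTPases of the GBP and IRG families, 4 transcription factors, 4 nucleic acid sensors, 2 feedback inhibitors, 4 genes of the PARP9-DTX3L group and 14 other effectors. RNA was sequenced from tumors of 12 syngeneic models, in which a mouse cancer cell line grows under the skin of immunocompetent mice. Untreated tumors at the start of treatment (Base, 35 tumors), tumors without treatment on day 8 (NT, 36 tumors) and tumors on day 8 of oral lenvatinib at 10 mg/kg (LEN, 36 tumors) were collected, with 3 tumors in each group except 2 for MC38 at Base. LEN is an inhibitor of several receptor tyrosine kinases, including the VEGF and FGF receptors. BNL 1ME A.7R.1 (BNL), RAG, Renca, CT26.WT (CT26), EMT6 and 4T1 were grown in BALB/cAnNCrlCrlj mice, B16-F10 and MC38 in C57BL/6NCrl, LL/2 in C57BL/6JCrl, Hepa 1-6 in C57L/J, KLN205 in DBA/2NCrl and MBT2 in C3H/HeNCrl mice. The mice were young at implantation, the mice with BNL and Hepa 1-6 were male, and the others were female. Each model is 1 cell line, so the model, its tissue of origin and, for LL/2, Hepa 1-6, KLN205 and MBT2, the host strain cannot be told apart.

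Type I interferons act largely through a promoter element called the interferon-stimulated response element (ISRE), whereas interferon gamma acts largely through the gamma-activated site (GAS). ISG15, IFIT, MX and OAS proteins are antiviral effectors strongly induced by type I interferon, and GBP and IRG proteins are GTPases that attack vacuoles holding intracellular pathogens and are strongly induced by interferon gamma. Most members respond to both kinds of interferon to some degree. The GENCODE annotation lists Mx2 as a polymorphic pseudogene, so its RNA need not give a working protein in every strain. In tumors, ISGs are expressed by the cancer cells as well as by leukocytes, endothelial cells and fibroblasts, and in bulk RNA a change in the share of such cells cannot be told apart from a change of RNA per cell.

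Promoter sequences from RefSeq (GRCm38.p6), reaching from 250 bases before the transcription start to 50 bases after it, were present for 38 of the 49 members. Entries for Usp18, Dhx58, Zbp1, Oas2, Parp9, Ifi27l2a, Mx2, Rtp4, Mx1, Iigp1 and Parp14 were missing. The ISRE core was searched on both strands as GAAA, any 2 bases and GAAA again, and the GAS core as TTC, any 3 bases and GAA, which covers both strands at once. Overlapping matches were counted, and 1 gene can have several promoters. The ISRE core was in 23 of 44 member promoters (52.3%) and in 3.44% of all 32851 promoters, and the GAS core was in 12 (27.3%) against 8.30%. Among the GBP and IRG genes, 9 of 10 promoters, from 9 genes, held the ISRE core and 6 held both cores. Among the type I-like genes, 5 of 9 promoters held the ISRE core, 2 held the GAS core, and 1 (Oas1a) held both. In Tgtp1, Tgtp2, Igtp and Irgm2 the GAS core started 11 bases before the ISRE core. The stretches of these 4 genes below also share bases directly before the GAS core, so they need not be 4 independent cases. The stretches from 110 to 21 bases before the start are shown for these 4 genes and for 2 type I-like genes, with the matches in capitals, because they show the paired cores of these 4 IRG genes beside the repeated ISRE cores of Isg15 and Ifit1. The arrangement did not divide the classes, since Irgm1 and Gbp3 each held 2 ISRE cores and no GAS core, and Gbp2 held 1 ISRE core alone.
Isg15: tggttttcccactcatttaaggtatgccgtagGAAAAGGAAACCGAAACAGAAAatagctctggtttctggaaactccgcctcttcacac
Ifit1: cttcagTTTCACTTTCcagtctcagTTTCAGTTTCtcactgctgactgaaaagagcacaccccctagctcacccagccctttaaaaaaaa
Tgtp1: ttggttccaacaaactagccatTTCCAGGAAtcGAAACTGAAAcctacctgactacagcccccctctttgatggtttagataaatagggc
Tgtp2: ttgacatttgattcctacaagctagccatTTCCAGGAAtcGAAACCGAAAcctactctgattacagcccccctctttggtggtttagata
Igtp: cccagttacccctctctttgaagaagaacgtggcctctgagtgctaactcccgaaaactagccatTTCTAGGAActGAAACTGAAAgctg
Irgm2: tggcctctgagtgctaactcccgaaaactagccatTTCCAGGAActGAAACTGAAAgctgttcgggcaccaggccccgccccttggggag

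The stretches precede the RefSeq transcription starts used in the promoter table and lie at chr4:156200839-156200928 on the minus strand for Isg15 and at chr19:34640779-34640868 on the plus strand for Ifit1. Those of Tgtp1 (chr11:48992267-48992356) and Tgtp2 (chr11:49064233-49064322) are on the minus strand. Those of Igtp (chr11:58199446-58199535) and Irgm2 (chr11:58214867-58214956) are on the plus strand. By the GENCODE annotation, whose genes can start at another transcript, the stretches of Tgtp1 and Irgm2 fall inside the gene span (48985327 to 48994172 and 58199618 to 58222782 on chromosome 11), and the other 4 lie before it. Isg15 held 3 overlapping ISRE cores, starting 78, 72 and 66 bases before the transcription start, and Ifit1 held 2, starting 104 and 85 bases before it. A match of these letters is a description of the sequence and not a measured binding site.

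Expression was deposited as TPM, a read share corrected for transcript length that sums to the same total in each tumor, so the sequencing depth behind a value is unknown. Tests used log2(TPM + 1), and a difference on that scale understates the fold change of a gene with low TPM. The summed TPM of protein-coding genes was 27.5% of the total in the lowest tumor (4T1 LEN replicate 4) and 66.6% in the highest (EMT6 LEN replicate 2). The other 4T1 LEN tumors were at 43.8% and 45.3%. Defining markers matched the labelled tissue for melanoma (Pmel 1619 TPM at Base in B16-F10), for Hepa 1-6 (Alb 2329 TPM), for the kidney models (Pax8 22.6 TPM in RAG and 57.6 TPM in Renca) and for the squamous model (Krt5 659 TPM in KLN205). The liver model BNL, the bladder model and the colon models had defining markers at or near 0 at Base. Alb was at 0.027 TPM in BNL, the other liver model, and Upk2 was listed at 0 in the bladder model MBT2. In the colon models, Cdx1 was listed at 0, Cdx2 was at 0.12 TPM in CT26 and listed at 0 in MC38, and Vil1 was at 0.27 and 0.64 TPM. The breast list was mixed, with Gata3 at 60.9 TPM in 4T1 and 1.69 TPM in EMT6, Esr1 at 7.83 and 16.4 TPM, Krt19 at 21.9 and 3.92 TPM, and Elf5 at 0.16 and 0.32 TPM. No lung markers were examined for LL/2. The labels do not say whether the tumors of a group came from separate experiments, and p-values measure the spread between these tumors only.

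Before treatment, the level of the ISGs differed between models for each of the 49 members (limma moderated F test over 35 Base tumors, adjusted p under the threshold of 0.05), as it did for 93.6% of all 17542 genes tested. MC38 had the highest Base level for 36 members and Hepa 1-6 for 11, while LL/2 had the lowest for 24 and KLN205 for 18. For the type I-like class, the mean log2(TPM + 1) over its members was 6.54 ± 0.246 (SD, n = 2) in MC38. It was 4.74 ± 0.282 (SD, n = 3) in CT26, 4.66 ± 0.145 in MBT2 and 4.52 ± 0.229 in RAG, and these 3 neighbours in the order lay within their spread. The lowest were KLN205 at 2.82 ± 0.195 and LL/2 at 2.41 ± 0.243. The KLN205 tumors (2.59 to 2.94) overlapped those of LL/2 (2.15 to 2.63), B16-F10 (2.58 to 3.45), 4T1 (2.70 to 3.60) and BNL (2.66 to 3.56). The KLN205 mean was 3.09 after protein-coding rescaling, so its rank is uncertain. The 2 MC38 tumors were above all Base tumors of the other models.

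The GBP and IRG class had another order at Base. Hepa 1-6 was highest at 7.42 ± 0.226 (SD, n = 3), followed by MC38 at 6.62 ± 0.354 (SD, n = 2), CT26 at 5.97 ± 0.354 and RAG at 5.65 ± 0.408. KLN205 was lowest at 2.03 ± 0.209, below LL/2 at 2.64 ± 0.434. The difference between the class means, GBP and IRG minus type I-like, was 3.55 in Hepa 1-6, 1.94 in B16-F10 and -0.79 in KLN205, the extremes of the 12 models. Leukocyte markers stood apart in Hepa 1-6 too: at Base the 4 general markers summed to 597 to 868 TPM, against at most 373 TPM in any other model, and the 6 T cell markers to 93.2 to 148 TPM, against at most 34.4 TPM. Their part in the Base order was not tested. In 4T1 the Base tumors spread widely in this class (SD 1.64), with a lowest tumor of 2.79 and a highest of 5.66.

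Isg15, a ubiquitin-like modifier, was at 343 and 471 TPM in the MC38 tumors, between 30.8 and 40.0 TPM in Hepa 1-6, and between 8.40 and 14.0 TPM in LL/2. Igtp, an IRG GTPase, was at 181, 191 and 244 TPM in Hepa 1-6, at 112 and 170 TPM in MC38, and at 3.15, 3.20 and 3.29 TPM in KLN205. Ifit3, an RNA-binding antiviral protein, was highest in MC38 (129 ± 27.3 TPM, SD, n = 2) and lowest in Hepa 1-6 (2.90 ± 0.255 TPM, SD, n = 3), the model in which Gbp2 was highest (641 ± 116 TPM).

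**Figure D1:**
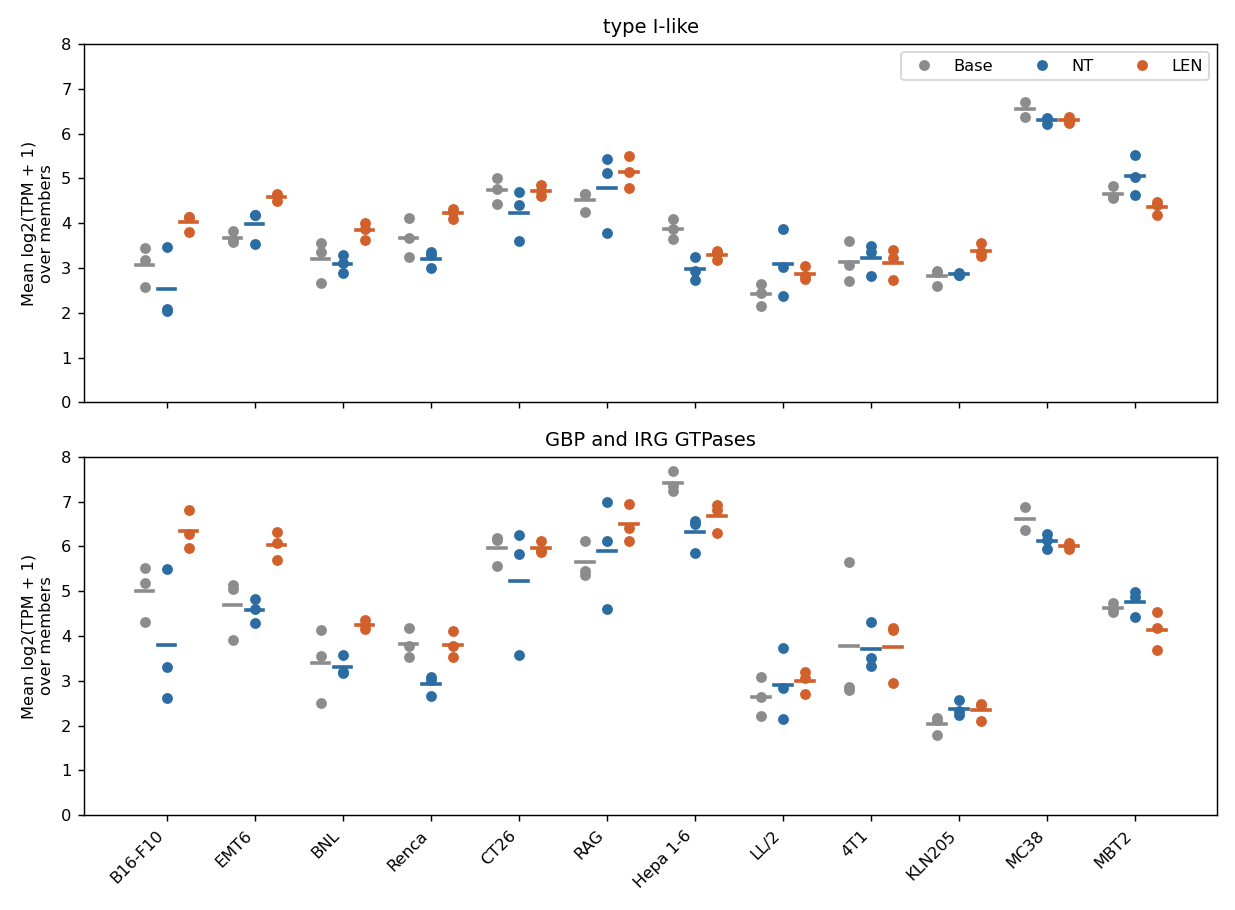
Mean log2(TPM + 1) over the 11 type I-like members (top) and the 10 GBP and IRG members (bottom) in each tumor, by model. Points are tumors, short lines are group means, and gray, blue and orange mark Base, NT and LEN. MC38 is highest in the upper panel and Hepa 1-6 at Base in the lower, and all LEN tumors of B16-F10, BNL, EMT6 and Renca lie above all NT tumors in both.

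Averaged over the 12 models, LEN tumors had higher ISG expression than NT tumors. In the fit of the 72 day 8 tumors, 39 of the 49 members were higher (limma, adjusted p under 0.05 over 17351 genes) and 0 were lower. Over all genes tested, 13.7% were higher and 9.87% were lower. The median difference was 0.34 on the log2 scale for the members and -0.0019 for all genes. Without B16-F10, 25 members were higher and 1 was lower, and without any 1 of the other models between 32 and 45 were called. Here and below, shares over all genes were not computed for refits without a tumor or model. The same holds for single models within the fit of all 72 tumors. Markers of other cells moved in the same fit. All 6 T cell markers, all 4 neutrophil markers, 2 of 3 tested NK cell markers and 2 of 2 tested markers of plasmacytoid dendritic cells were higher, whereas all 5 endothelial markers and 4 of 6 macrophage markers were lower and 0 of 4 general leukocyte markers were called. Their part in the ISG differences was not tested.

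In comparisons of LEN with NT, a rise is relative to NT tumors on day 8, and LEN was not tested against Base. Of the GBP and IRG GTPases, 9 of 10 rose, with a median of 0.58, and Gbp7 was at 0.21 (adjusted p = 0.24). The GBP and IRG class mean of LEN tumors was near Base in Renca (3.80 against 3.83), CT26 (5.96 against 5.97) and 4T1. It was below Base in Hepa 1-6 (6.68 against 7.42), MBT2 and MC38. It was above Base in EMT6 (6.04 against 4.70), B16-F10, BNL, KLN205, LL/2 and RAG. Of the type I-like genes, 10 of 11 rose, with a median of 0.40, and Ifit2 was at 0.036 (adjusted p = 0.80). All 4 transcription factors (median 0.33) and both feedback inhibitors (0.37) rose, as did 2 of the 4 sensors (0.21), 3 of the 4 genes of the PARP9-DTX3L group (0.27) and 9 of the 14 other effectors (0.27). The members that did not pass the threshold were, beside Gbp7 and Ifit2, Ifih1, Eif2ak2, Parp12, Ifi44, Trim30a, Sp100, Slfn5 and Ifi27l2a. Ifi27l2a, encoding a small mitochondrial and nuclear membrane protein, was the single member with a negative mean (-0.24, adjusted p = 0.082).

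**Figure D2:**
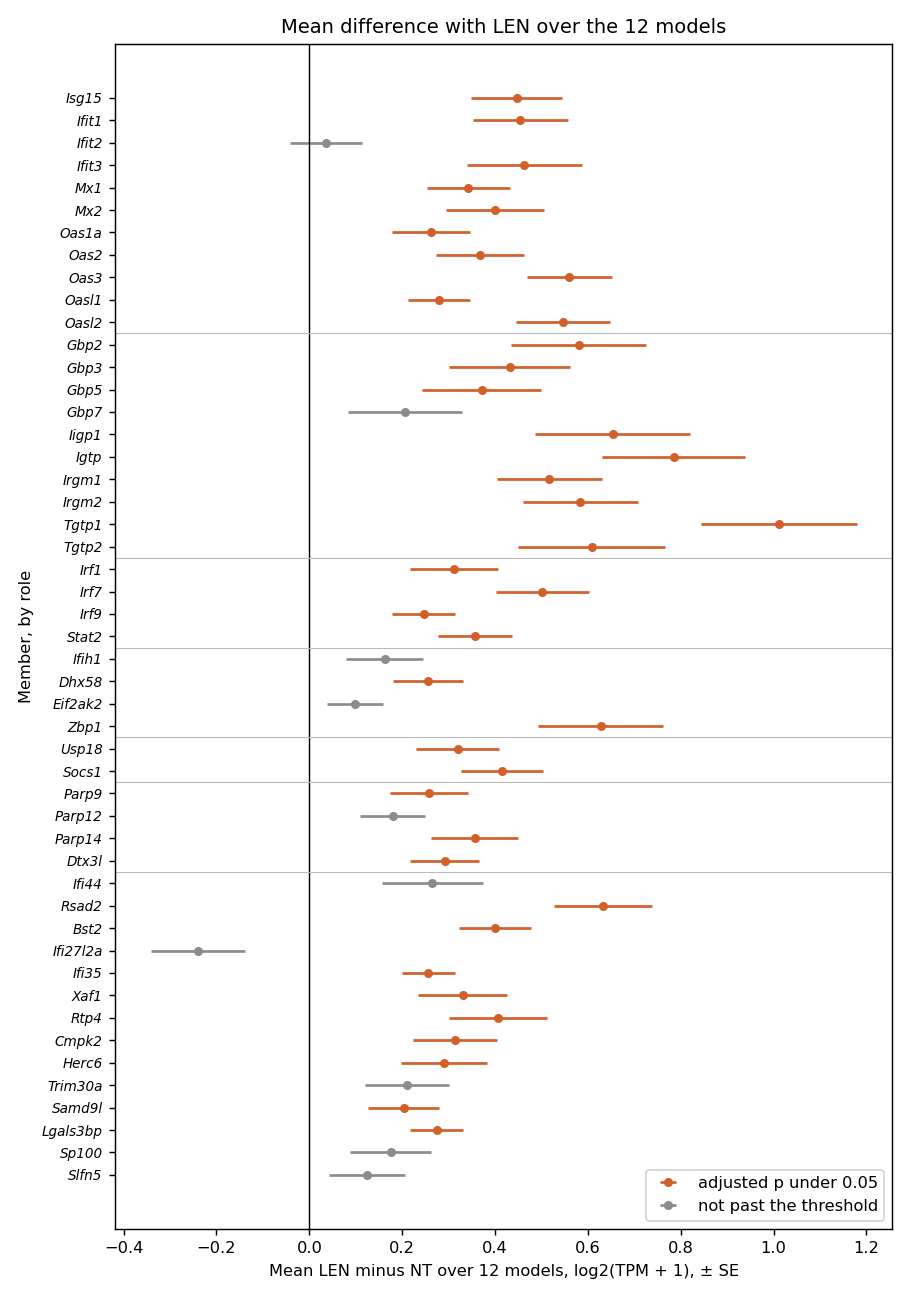
Mean difference between LEN and NT over the 12 models for each member, as log2(TPM + 1) with its standard error, ordered by role. Orange points passed an adjusted p of 0.05 (39 members) and gray points did not (10 members). Tgtp1 is farthest to the right at 1.01 and Ifi27l2a is the one point left of 0.

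Among the type I-like genes, the largest mean differences were those of Oas3, Oasl2 and Ifit3. Oas3, which makes the messenger that activates RNase L, rose by 0.56 ± 0.092 (SE, limma adjusted p = 3.75e-06) and was higher in 9 of 12 models. In BNL it was at 1.51, 2.94 and 3.27 TPM in NT and at 7.63, 10.51 and 14.3 TPM in LEN tumors, and in Renca at 12.4, 14.1 and 15.8 TPM against 27.8, 28.5 and 32.8 TPM. The groups did not overlap in either model. In MBT2 the order was the opposite, with 17.2, 19.4 and 29.5 TPM in NT and 10.9, 12.3 and 12.3 TPM in LEN tumors.

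Oasl2, an OAS-like protein with ubiquitin-like domains, was higher in 11 of 12 models. In B16-F10 it was at 5.62, 6.33 and 19.7 TPM in NT and at 38.9, 45.9 and 49.8 TPM in LEN tumors (2.19 ± 0.41 on the log2 scale, SE, limma adjusted p = 0.021). Ifit3 in Renca was at 2.85, 4.07 and 4.53 TPM in NT and at 8.19, 8.93 and 10.8 TPM in LEN tumors (1.10 ± 0.16, limma adjusted p = 0.0066). Both genes thus had LEN tumors above all NT tumors in these models. In MC38, where both were highest at Base, NT and LEN tumors overlapped for both.

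Isg15 rose by 0.45 ± 0.097 (SE, limma adjusted p = 0.000352) in the mean over models. In B16-F10 its NT tumors were at 9.69, 10.49 and 32.0 TPM and its LEN tumors at 46.6, 56.3 and 62.5 TPM. In Renca they were at 29.8, 43.2 and 44.7 TPM against 78.2, 88.9 and 96.6 TPM, and in KLN205 at 10.1, 13.2 and 14.1 TPM against 19.8, 22.1 and 28.3 TPM. LEN tumors were above all NT tumors in these 3 models and in BNL and EMT6, whereas the groups overlapped in the other 7. MC38 held 308, 331 and 332 TPM in NT and 300.04, 314 and 350 TPM in LEN tumors, and the groups overlapped.

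Among the GBP and IRG GTPases, the largest mean differences were those of Tgtp1, Igtp and Iigp1. Tgtp1 rose by 1.01 ± 0.17 (SE, limma adjusted p = 5.05e-06). In BNL it was at 2.43, 2.46 and 3.83 TPM in NT and at 39.0, 42.8 and 46.2 TPM in LEN tumors, a difference of 3.498. Its neighbour Tgtp2 was at 5.67, 8.02 and 14.0 TPM in the same NT tumors and at 14.4, 15.1 and 18.0 TPM in the LEN tumors, a difference of 0.80 (limma adjusted p = 0.069). Tgtp1 and Tgtp2 are near-identical copies, so the authors' read assignment could divide reads between them, and their single values are uncertain. The same holds to a lesser degree for the Ifit, Oas and Gbp genes, which have close paralogs.

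Igtp rose by 0.79 ± 0.15 (SE, limma adjusted p = 8.18e-05) and was higher in 10 of 12 models. In EMT6 it was at 13.7, 18.8 and 23.9 TPM in NT and at 50.3, 71.1 and 84.2 TPM in LEN tumors (1.81 ± 0.24, limma adjusted p = 0.034). Its annotated span, 58199556 to 58207591 on chromosome 11, overlaps that of Irgm2 on the same strand, so reads of the 2 genes may not be fully separated. Iigp1, a GTPase that loads onto parasite vacuoles, was at 10.2, 16.5 and 20.0 TPM in NT tumors of EMT6 and at 45.2, 64.0 and 90.0 TPM in LEN tumors (2.02 ± 0.30, limma adjusted p = 0.040). In EMT6 the LEN tumors were above all NT tumors for each of the 10 GBP and IRG members.

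In the other roles, the member with the largest mean difference was Irf7 among transcription factors, Zbp1 among sensors, Socs1 among feedback inhibitors, Parp14 in the PARP9-DTX3L group and Rsad2 among other effectors. Irf7, the transcription factor that amplifies type I interferon production, was at 14.0, 19.6 and 19.6 TPM in NT tumors of Renca and at 41.3, 46.1 and 52.1 TPM in LEN tumors. Zbp1, a sensor of Z-form nucleic acids, was at 1.81, 3.56 and 28.8 TPM in NT tumors of B16-F10 and at 48.0, 59.0 and 81.6 TPM in LEN tumors (3.10 ± 0.82, limma adjusted p = 0.057). For both genes the LEN tumors were above all NT tumors in these models, although the difference of Zbp1 in B16-F10 did not pass the threshold.

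Socs1, an inhibitor of JAK kinases, was at 1.94, 2.77 and 6.21 TPM in NT tumors of B16-F10 and at 12.3, 12.7 and 19.0 TPM in LEN tumors. Parp14, an ADP-ribosyltransferase, was at 4.77, 6.31 and 18.3 TPM and at 29.4, 34.6 and 41.4 TPM in the same groups. Rsad2 (viperin), which makes a chain-terminating nucleotide, was at 1.43, 3.15 and 3.21 TPM in NT tumors of Renca and at 12.9, 16.02 and 18.4 TPM in LEN tumors (2.25 ± 0.23, limma adjusted p = 0.0016). The groups of these 3 genes did not overlap in the models given.

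The difference between LEN and NT was not the same in every model. By the F test of 11 contrasts, it differed between models for 47 of 49 members (35.3% of all genes), and Ifit2 (adjusted p = 0.0995) and Ifi44 (0.066) did not pass. Without B16-F10 the count was 23, with no share of all genes computed for that fit. The smallest p-values were those of Lgals3bp, a secreted glycoprotein, Oasl1, an OAS-like inhibitor of Irf7 translation, and Ifi27l2a. Lgals3bp was at 75.3, 89.2 and 132 TPM in NT and at 202, 230 and 246 TPM in LEN tumors of B16-F10, and at 92.8, 112 and 145 TPM against 62.9, 74.2 and 84.2 TPM in MBT2. Oasl1 was at 11.1, 12.4 and 12.5 TPM against 22.9, 23.4 and 25.04 TPM in Renca, and at 37.7, 50.2 and 70.1 TPM against 23.1, 25.7 and 34.3 TPM in MBT2. Ifi27l2a was at 4.55, 4.64 and 12.2 TPM against 25.1, 26.1 and 27.3 TPM in B16-F10, and at 29.3, 34.9 and 42.1 TPM against 4.35, 12.9 and 18.1 TPM in 4T1. Each of these 3 genes had models with all LEN tumors above, and models with all LEN tumors below, the NT tumors.

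**Figure D3:**
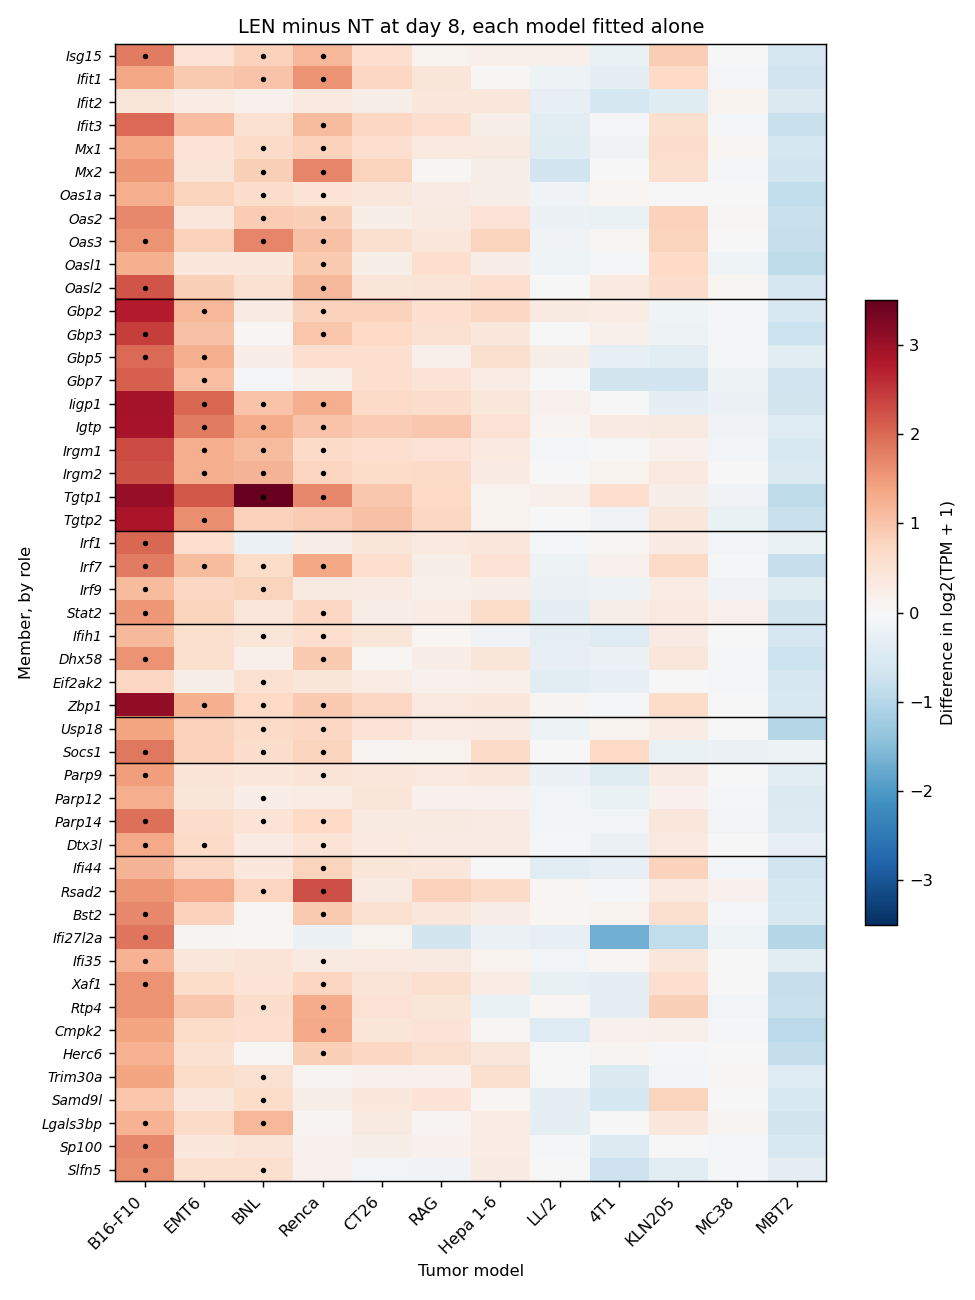
Difference between LEN and NT in log2(TPM + 1) for each member (rows, by role) and model (columns), each model fitted alone. Red is higher and blue is lower in LEN tumors, and dots mark an adjusted p under 0.05. The column of B16-F10 is the reddest, that of MBT2 is blue throughout, and in KLN205 the type I-like block is mostly red, Ifit2 excepted, while the GBP and IRG block is mixed, from Gbp7 at -0.67 to Tgtp2 at 0.40.

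B16-F10 had the largest median difference of the 12 models. All 49 members were higher in LEN tumors, with a median of 1.58, and 21 passed the test (8.57% of all genes were higher and 2.42% lower). LEN tumors were above all NT tumors for 47 members (20.3% over all genes). The GBP and IRG members were higher by a median of 2.58 and the type I-like by 1.53, and among called members Gbp3, a guanylate-binding protein, rose most (2.83, 4.30 and 17.9 TPM against 30.7, 35.2 and 48.9 TPM). NT replicate 4 was the highest NT tumor in both classes. Without it, 48 members passed the test, and without any 1 of the other 5 tumors between 1 and 3 did. Leukocyte markers moved in the same direction: all 4 of the list rose, with a summed level of 16.8 to 40.7 TPM in NT and 131 to 155 TPM in LEN tumors. All 6 T cell markers (0.85 to 4.20 TPM against 17.0 to 20.6 TPM), all 6 macrophage markers and all 4 fibroblast markers also rose. Neutrophil markers had 1 of 4 called higher, with sums of 1.22 to 7.88 TPM against 11.8 to 16.1 TPM. The 1 tested NK cell marker and the 1 tested marker of plasmacytoid dendritic cells rose too, with sums of 0.50 to 2.63 TPM against 8.84 to 9.45 TPM and of 0.31 to 0.63 TPM against 4.74 to 6.76 TPM, and 3 of 5 endothelial markers fell. The protein-coding share of TPM was 54.6% to 58.4% in NT and 59.1% to 60.6% in LEN tumors. Their part in the ISG differences was not tested.

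In Renca, 48 of 49 members were higher, with a median of 0.77, and 35 passed the test (4.91% of all genes were higher and 7.15% lower). They included 10 of 11 type I-like and 7 of 10 GBP and IRG members, and LEN tumors were above all NT tumors for 39 (13.3% over all genes). Rsad2 rose most, and 0 members fell. Here 3 of 4 leukocyte markers were lower, and the macrophage markers went the other way than the ISGs, with 5 of 6 lower and a summed level of 501 to 572 TPM in NT and 299 to 310 TPM in LEN tumors. The 6 T cell markers summed to 4.56 to 5.36 TPM in NT and 7.37 to 9.21 TPM in LEN tumors, and of the 3 tested 2 were higher and 1 was lower. Of the neutrophil markers 2 of 3 tested were higher (summed level 14.0 to 14.9 TPM against 28.4 to 39.3 TPM), as was the 1 tested marker of plasmacytoid dendritic cells (1.04 to 1.66 TPM against 3.08 to 3.90 TPM), and all 5 endothelial markers were lower. Their part was not tested. When the contrast was taken from the fit of all 72 tumors, 12 members passed.

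In BNL, 47 of 49 members were higher and 27 passed the test, where 26.3% of all genes were higher and 5.21% lower. LEN tumors were above all NT tumors for 32 members (38.1% over all genes). The LEN and NT tumors of this model differed in many other genes: Krt8, an epithelial keratin, was at 7.67 to 17.9 TPM in NT and at 444 to 520 TPM in LEN tumors. Its Base mean was 77.3 TPM. The epithelial markers summed to 128 to 166 TPM at Base, 15.6 to 37.2 TPM in NT and 831 to 993 TPM in LEN tumors, so both day 8 groups differed from Base. Some immune markers moved with the ISGs: 3 of 4 leukocyte markers were higher (summed level 210 to 212 TPM in NT and 270 to 314 TPM in LEN tumors), as were 4 of 5 tested T cell markers (6.69 to 9.73 TPM against 18.9 to 23.9 TPM), 2 of 3 tested NK cell markers and all 3 markers of plasmacytoid dendritic cells. Neutrophil markers had 2 of 4 higher, with overlapping sums (27.1 to 32.5 TPM against 31.2 to 55.9 TPM). Of the macrophage markers 0 of 6 were higher and 1 was lower (580 to 597 TPM against 524 to 655 TPM), and all 4 fibroblast and all 5 endothelial markers were lower. The protein-coding share of TPM was 54.3% to 57.4% in NT and 60.2% to 62.0% in LEN tumors, without overlap. The part of these measures was not tested. Tgtp1 rose most, as given above, and 8 members passed in the fit of all 72 tumors.

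In EMT6, all 49 members were higher, with a median of 0.71, and 11 passed the test (0.819% of all genes were higher and 0.0968% lower). Of these, 8 were GBP and IRG members and 0 were type I-like, of which 6 had an unadjusted p under 0.05. The difference between the classes was not tested. The other called members were Irf7, Zbp1 and Dtx3l. LEN tumors were above all NT tumors for 40 members (16.4% over all genes) and below them for 0 (7.02%). The count fell to 0 without NT replicate 2 or 4 or LEN replicate 2 or 4 and to 0 with no minimum TPM. The protein-coding share of TPM was 57.3% to 61.0% in NT and 62.9% to 66.6% in LEN tumors, without overlap, and the count was 1 after protein-coding and 0 after upper-quartile rescaling. Without NT replicate 1 it was 6, and it was 4 in the fit of all 72 tumors. Of the leukocyte markers 0 were called, with a summed level of 204 to 257 TPM in NT and 213 to 352 TPM in LEN tumors, and the T cell markers summed to 3.87 to 5.81 TPM against 8.05 to 17.5 TPM. Neutrophil markers (112 to 153 TPM against 174 to 287 TPM) and NK cell markers (3.07 to 5.81 TPM against 8.26 to 14.4 TPM) were also higher without overlap in their sums, with 0 called. Their part was not tested.

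KLN205 had 0 members past the threshold by limma (0.0778% of all genes were higher and 0.15% lower), with 24 at an unadjusted p under 0.05 and a smallest adjusted p of 0.072. LEN tumors were above all NT tumors for 22 members (6.79% over all genes), of which 8 were type I-like and 0 were GBP and IRG members. They were below all NT tumors for 2 members (12.7% over all genes), Ifit2 (2.44, 2.54 and 3.03 TPM in NT against 1.64, 1.65 and 1.89 TPM in LEN tumors) and Gbp7 (8.55 to 11.04 TPM against 4.73 to 6.95 TPM). The type I-like class mean was 2.85 to 2.90 in NT and 3.26 to 3.56 in LEN tumors, a difference of 0.52, and the GBP and IRG class differed by -0.030. With the median over members the GBP and IRG difference was 0.30, so its sign depended on that choice. Isg15 (0.86), Rtp4 (0.83) and Oas2 (0.81) had the largest differences, and Ifi27l2a (-0.86) and Gbp7 (-0.67) were at the other end. Leukocyte markers moved in this model too, with a summed level of 155 to 197 TPM in NT and 100.8 to 117 TPM in LEN tumors (1 of 4 called lower), and macrophage markers summed to 289 to 328 TPM against 171 to 219 TPM (0 of 6 called). T cell markers overlapped, at 3.15 to 5.25 TPM against 2.74 to 5.82 TPM. Neutrophil markers were higher without overlap in their sums (44.8 to 56.8 TPM against 66.3 to 94.2 TPM) and endothelial markers lower (50.4 to 70.8 TPM against 23.1 to 33.5 TPM), with 0 called in either list. Their part was not tested.

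MBT2 was the one model in which all 49 members were lower in LEN tumors, with a median of -0.60. LEN tumors were below all NT tumors for 32 members (10.6% over all genes) and above them for 0 (8.53%), and 38 had an unadjusted p under 0.05. None passed the adjusted threshold by limma in the model alone (0 members, smallest adjusted p 0.078), where 0.013% of all genes were lower and 0.0065% higher, and in the fit of all 72 tumors 1 did, Oasl1 (adjusted p = 0.025). Usp18, the protease that removes ISG15 and restrains the type I receptor, had the most negative difference, with 22.3, 32.0 and 45.05 TPM in NT and 14.6, 15.1 and 16.6 TPM in LEN tumors. The T cell markers summed to 18.8 to 28.2 TPM in NT and 14.9 to 18.6 TPM in LEN tumors, and the endothelial markers to 32.8 to 61.0 TPM against 13.3 to 23.4 TPM, with 0 called in either list. Macrophage (668 to 899 TPM against 434 to 727 TPM) and neutrophil markers (29.5 to 49.6 TPM against 43.4 to 95.0 TPM) overlapped. Their part was not tested.

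The other 6 models had 0 called members each by limma, and their unadjusted counts were 9 in Hepa 1-6, 2 in 4T1, 1 each in CT26, LL/2 and MC38, and 0 in RAG. Few genes of any kind passed there: the shares of all genes higher and lower were 0.0423% and 0.0242% in Hepa 1-6, 0.00637% and 0.00637% in 4T1, and 0% and 0.00659% in CT26. They were 0.0709% and 0.0774% in LL/2, 0.00628% and 0.0251% in MC38, and 0.0261% and 0.00651% in RAG. All LEN tumors exceeded all NT tumors for 8 members in Hepa 1-6 (24.6% over all genes), 2 in CT26 (7.23%), 1 in 4T1 (5.32%) and 0 in LL/2 (2.75%), MC38 (11.1%) and RAG (5.09%). They were below all NT tumors for 1 member in 4T1 (9.14%), 1 in MC38 (6.41%) and 0 in Hepa 1-6 (5.02%), CT26 (7.58%), LL/2 (23.7%) and RAG (9.06%). CT26 (48 of 49 members), RAG (47) and Hepa 1-6 (45) had mostly positive differences, with medians of 0.43, 0.34 and 0.29 beside all-gene medians of 0.0092, -0.028 and 0.14. Positive differences were fewer in MC38 (13), LL/2 (15) and 4T1 (19), with medians of -0.039, -0.11 and -0.071 beside all-gene medians of 0.034, -0.13 and -0.19, so that in LL/2 and 4T1 the members were not below the genes at large. In CT26 and in RAG, NT replicate 5 was the lowest NT tumor in both classes. Without it, the GBP and IRG difference was -0.082 in CT26 and -0.058 in RAG, and the type I-like difference was 0.17 in CT26 and -0.14 in RAG. In LL/2, NT replicate 1 was the highest NT tumor in both classes. Without it, the type I-like difference went from -0.21 to 0.18 and the GBP and IRG difference from 0.085 to 0.50. In 4T1, LEN replicate 4 was the lowest LEN tumor in both classes. Without it, these differences went from -0.11 to 0.087 and from 0.041 to 0.45. In MC38, where the type I-like members are highest, the class mean was 6.22 to 6.34 in NT tumors and differed by -0.0013 in LEN tumors.

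Both classes were compared by their mean difference in each model. Over the 12 models it was 0.57 for the GBP and IRG and 0.38 for the type I-like members, and the GBP and IRG difference was the larger in 9 of 12 models. The gap was 1.05 in B16-F10 and 0.85 in EMT6, and in the other 10 models it was between -0.55 and 0.30. KLN205 had the most negative gap with the mean over members (-0.55), and its gap was -0.28 with the median. In Renca the gap was -0.13 with the mean over members and 0.34 with the median, so its sign depended on that choice. The count of 9 also rested on small gaps: with 1 tumor left out the gap reached -0.25 in CT26 (without NT replicate 5), -0.062 in Hepa 1-6, -0.091 in 4T1 and -0.054 in MBT2, so it kept its sign in 5 of those 9 models.

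**Figure D4:**
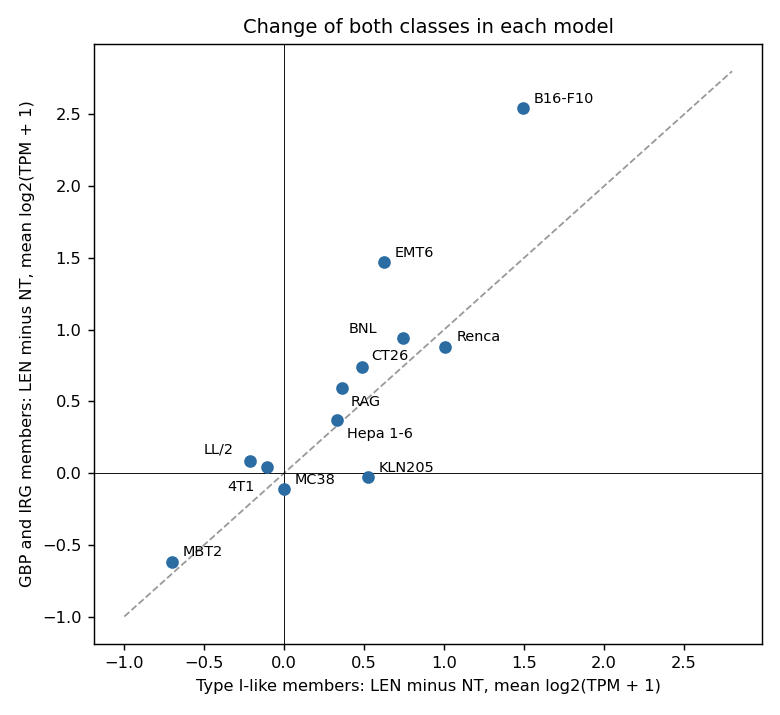
Difference between LEN and NT in the class mean of log2(TPM + 1), with the type I-like members on the horizontal and the GBP and IRG members on the vertical axis. Each point is 1 model and the dashed line marks equal differences. B16-F10 and EMT6 lie above the line (gaps of 1.05 and 0.85), KLN205 lies below it (-0.55), and MBT2 is negative on both axes.

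The untreated groups were compared over time to give the background of the comparison with LEN. Relative to Base, 6 members were lower in NT tumors (11.5% of all genes were lower) and 0 were higher (17% of all genes were), with a median of -0.12 against 0.013 for all genes. The NT tumors are the same as in the comparisons with LEN. By the F test it differed between models for 17 of 49 members (66.5% of all genes). All 49 members were lower in NT than Base in Hepa 1-6 (median -0.91), CT26 (-0.58), B16-F10 (-0.55) and Renca (-0.50), whereas 44 were higher in LL/2 (median 0.41). The protein-coding share of TPM was 56.2% to 59.1% at Base and 50.2% to 52.3% in NT tumors of Hepa 1-6. In CT26 it was 52.9% to 56.4% against 44.7% to 50.9%, and it overlapped in B16-F10, Renca and LL/2. The GBP and IRG mean of CT26 was 3.59 in NT replicate 5, against 5.83 and 6.26 in the other NT tumors and 5.56 to 6.19 at Base. In LL/2 it was 3.74 in NT replicate 1, against 2.14 and 2.83 in the others and 2.21 to 3.08 at Base. Oas3 was at -1.37 in Hepa 1-6 and at 1.08 in LL/2. In CT26 the smallest adjusted p of a member was 0.067 (limma), and in B16-F10 and Renca only Ifi27l2a and Slfn5 passed. Over the 12 models, Ifi27l2a fell by 0.62 ± 0.11 (SE, limma adjusted p = 3.92e-05), Socs1 by 0.61 ± 0.095 and Slfn5, a Schlafen family protein, by 0.44 ± 0.086. Tgtp1, Zbp1 and Irf1, the transcription factor that binds IRF elements, passed with adjusted p-values (limma) between 0.037 and 0.048. The count was between 3 and 11 when single tumors were left out, and 11 was reached without NT replicate 4 of B16-F10. All 4 general leukocyte markers were also lower in NT than Base (limma adjusted p between 0.0011 and 0.011). Their sum was 597 to 868 TPM at Base and 245 to 502 TPM in NT tumors of Hepa 1-6. It was 65 to 82 TPM against 16.8 to 40.7 TPM in B16-F10, and 318 to 359 TPM against 192 to 220 TPM in Renca. It overlapped in CT26 and was also lower in LL/2 (236 to 283 TPM against 139 to 224 TPM). The part of these markers and of the protein-coding share was not tested.

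The interferon genes themselves were at low TPM in most tumors. In the fit of the 72 day 8 tumors, 1 of 21 ligand genes passed the minimum of 1 TPM, Ifnb1, encoding interferon beta, and it passed through KLN205 alone. It was at 8.01, 9.91 and 12.0 TPM in NT and at 10.9, 17.1 and 20.0 TPM in LEN tumors of KLN205, and at 5.38, 7.17 and 8.02 TPM at Base in that model. No tumor of another model exceeded 0.94 TPM. Ifng, encoding interferon gamma, was at 5.80, 6.26 and 12.6 TPM at Base in Hepa 1-6 and at 0.00, 0.07 and 0.20 TPM in NT and 1.03, 1.85 and 1.97 TPM in LEN tumors of B16-F10. In KLN205 it was listed at 0 in all 6 day 8 tumors, and in Renca it was at most 0.22 TPM on day 8. The relation of ligand levels to the class levels was not tested.

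**Figure D5:**
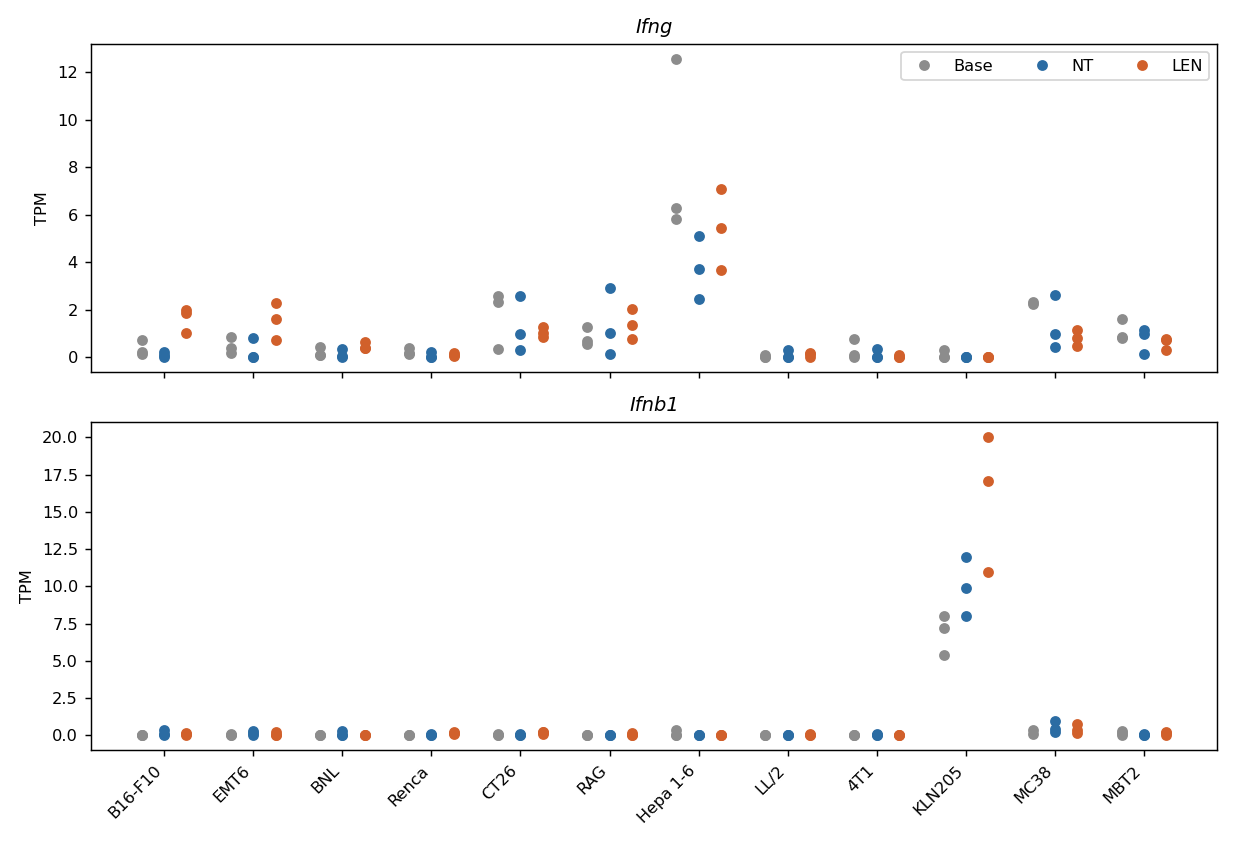
TPM of Ifng (top) and Ifnb1 (bottom) in each tumor, by model, with gray, blue and orange for Base, NT and LEN. Ifng is highest in Hepa 1-6 at Base (5.80 to 12.6 TPM), and Ifnb1 is above 0.94 TPM in KLN205 alone.

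Of 13 genes of interferon signalling that are no members, 5 rose and 1 fell in the mean over models, where 13.7% of all genes rose and 9.87% fell. Among them Socs3, a feedback inhibitor of cytokine receptors, rose by 0.46, and the kinases Jak2 and Jak1 rose by 0.22 and 0.11. The receptor gene Ifngr1 rose by 0.12, and the phosphatase Ptpn6 fell by 0.21. Of 14 genes of upstream nucleic acid sensing, 2 rose, the adaptor Ticam1 (0.15) and the ubiquitin ligase Trim25 (0.20), and 0 fell, a share of higher genes near that of all genes. The receptor genes Ifnar1 and Ifnar2 were at -0.011 and 0.067 and did not pass the test.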

How the data were processed

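Tumor RNA was purified, depleted of ribosomal RNA and sequenced. Per the labels' processing notes, the authors used Trimmomatic 0.36, STAR 2.5.2b and RSEM 1.2.31 with mouse build GRCm38, and deposited TPM for 50686 genes in each tumor. TPM keeps no depth, so counting precision is unknown. Log2(TPM + 1) was fitted with limma 3.58.1 in R 4.3.3 (moderated variances, trend included). Genes whose mean TPM over the tumors of a fit was under 1 were left out. All 49 members passed. The 72 day 8 tumors were fitted as 24 groups, and each model was also fitted alone. Benjamini-Hochberg adjustment ran over all genes tested, with a threshold of 0.05. Class values are means over members and were not tested. The code was tested on simulated data.

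Members and lists were chosen with earlier results of these data known. Per-tumor values are given for Isg15, the 3 members with the largest mean difference in each of the 2 classes, the largest in each other role, the largest called rise or fall in each model, and the 3 smallest F test p-values. Members named beside these were chosen after their values were seen. One gene of the interferon signalling list is counted but not reported here. Positions are from GENCODE M21 and promoters from RefSeq. Alternatives were a pseudocount of 0.1, minimum TPM of 5 or none, upper-quartile or protein-coding rescaling, no trend, a replicate block, and leaving out tumors or models.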

Additional observations from a re-analysis of the deposited data

Results flagged for a closer look

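The difference between LEN and NT tumors differed between the 12 models for each of the following genes by limma's F test of 11 contrasts. The adjusted p-value was 0.0035 for Isg15, 0.000253 for Oas3, 0.0036 for Oasl2 and 0.015 for Ifit3 among the type I-like genes. It was 0.000233 for Tgtp1, 0.018 for Igtp, 0.012 for Iigp1 and 0.011 for Gbp3 among the GTPases. It was 0.0015 for Irf7, 0.0029 for Zbp1, 0.0025 for Socs1, 0.0055 for Parp14 and 0.000857 for Rsad2. The smallest values were 5.89e-06 for Lgals3bp, 5.98e-05 for Oasl1 and 7.46e-05 for Ifi27l2a. The type I-like class mean was higher in all LEN than in all NT tumors of B16-F10 (difference 1.49) and lower in all LEN tumors of MBT2 (-0.70), a difference between models that was not tested.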

How the results depend on the processing

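TPM gives no read depth, groups held 3 tumors, and class means were not tested, so counts in single models are sensitive to 1 tumor and to the number of genes tested. The cause of each shift below was not tested unless fewer tumors or genes were fitted.

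With tumors or models left out, the members higher in the mean over models numbered 25 to 45 and lower 0 to 1, those differing between models 23 to 49, and those lower in NT than Base 3 to 11. The members higher were 1 to 48 in B16-F10, 0 to 9 in EMT6, 18 to 29 in BNL, 24 to 31 in Renca and 0 to 2 in Hepa 1-6, and those lower in MBT2 were 0 to 1. The mean difference of Ifit2 was between -0.013 (without RAG NT replicate 5) and 0.072 when single tumors were left out, and that of Slfn5 was -0.012 without B16-F10.

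In the fit of all 72 tumors, members higher were 48 in B16-F10, 8 in BNL, 4 in EMT6 and 12 in Renca, and 1 was lower in 4T1 and 1 in MBT2. Replicate numbers are shared by groups of a model but nothing ties equal numbers together (consensus correlation 0.082). With the replicate block in that fit these counts were 48, 9, 7 and 13, with 1 lower in 4T1 and 1 in MBT2. With no minimum TPM, 5 members were higher in B16-F10 and 0 in EMT6, and 3 were lower in NT than Base. With a minimum of 5, 20 were higher in EMT6 and 1 in KLN205, and 1 was lower in MBT2. With no trend, 9 were higher in B16-F10 and 0 in EMT6. Under upper-quartile rescaling 1 member was lower in the mean over models, 1 in BNL and 1 in MBT2, 0 were higher in EMT6 and 1 in KLN205. Under protein-coding rescaling the same counts were 1, 1, 1, 1 and 1, and 12 were lower in NT than Base.

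Class levels at Base with a pseudocount of 0.1 were 3.54 in EMT6, 2.56 in KLN205 and 2.04 in LL/2 for type I-like, and 1.55 in KLN205 for GBP and IRG members. Under upper-quartile rescaling they were 3.08 in KLN205 and 4.48 in MBT2 for type I-like, and 2.25 and 4.45 for GBP and IRG, whose change in BNL was 0.75. Under protein-coding rescaling the type I-like level was 3.86 in EMT6, 3.09 in KLN205, 4.48 in MBT2 and 4.76 in RAG, and the GBP and IRG level 2.26 in KLN205 and 4.44 in MBT2. With the median over members, the type I-like level was 3.31 in EMT6, 3.47 in Hepa 1-6 and 2.53 in KLN205, its change in Renca 0.55, the GBP and IRG level in MBT2 4.85, and the GBP and IRG change 0.75 in BNL, 1.82 in EMT6 and 0.30 in KLN205. The gap between classes was then -0.28 in KLN205 and 0.34 in Renca. With Tgtp1 and Tgtp2 summed, the GBP and IRG level in MBT2 was 4.82 and the gap in BNL 0.076.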
